A study of Mus musculus with 12 samples.

Results

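Bdnf, Nptx2, Ptgs2 and Scg2 are 4 genes that neurons switch on when they are active and whose products act at the synapse or outside the cell. They were taken by gene symbol from the deposited table of 584 genes of the mouse hippocampus, and all 4 were in it. Male C57BL/6 mice were weaned at 3 weeks of age and then kept for 5 weeks in standard cages (SH) or in an enriched environment (EE), in which the cage held toys, tunnels and hideouts that were changed weekly, and more animals shared a cage. Hippocampal RNA was sequenced at 8 weeks of age from 3 SH and 3 EE samples, and the labels give no drug or genetic change in either group. The sources used here do not say whether a library came from 1 mouse or from several, so p-values measure the spread between these libraries. The 6 m6A immunoprecipitation libraries of the study were not analysed here.

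The authors listed these 584 genes because they differed between SH and EE in the same 6 libraries. A member of the table therefore had to differ, and a p-value inside it does not say how often genes of the whole transcriptome changed. The adjusted p-values and confidence intervals below do not allow for this selection. They do not control the share of false calls and are given as a description. The libraries held between 31969156 and 53943195 reads behind their FPKM values, which scale the read count of a gene by its length and by the depth of the library, and no count of the table was below 19.

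Activity-dependent transcription proceeds in steps. Calcium entry and cAMP activate transcription factors such as CREB, which bind cAMP response elements (CRE) and switch on early genes. Some of these encode further transcription factors, and others encode effectors that leave the nucleus or the cell. The 4 genes are effectors of this kind. Bdnf encodes brain-derived neurotrophic factor, a secreted ligand of the receptor TrkB that strengthens synapses. Nptx2 encodes neuronal pentraxin 2 (Narp), a secreted protein that clusters AMPA receptors at excitatory synapses. Ptgs2 encodes cyclooxygenase 2, the inducible enzyme that makes the precursor of prostaglandins. Scg2 encodes secretogranin II, a granin of dense core vesicles that is cut into secretoneurin and other peptides.

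The CRE is the best known control element of such genes, so the stretches that hold its letters are shown for the members whose promoter windows have them. The windows are from RefSeq (GRCm38.p6, the build called mm10) and run from 250 bases before to 50 bases after a transcript start. Scg2 had 1 window, Ptgs2 had 1 and Bdnf, which has several promoters, had 7. The promoter of Nptx2 was not analysed here. Capitals mark TGACG or CGTCA, the half-site of the CRE on either strand, and in Scg2 a half-site on each strand overlaps the other in the full element TGACGTCA. All are written 5′ to 3′ on the strand of the gene.
Scg2 chr1:79440067-79440114, minus strand: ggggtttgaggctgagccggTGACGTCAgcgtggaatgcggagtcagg
Bdnf chr2:109692381-109692425, plus strand: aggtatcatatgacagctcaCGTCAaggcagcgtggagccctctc
Ptgs2 chr1:150100032-150100060, plus strand: gagtcaccactaCGTCAcgtggagtccgc
The full element of Scg2 began 68 bases before the start. The Bdnf half-site began 35 bases before the start at base 109692436, and it was found in 1 of the 7 Bdnf windows. The Ptgs2 half-site began at base 14 of the transcript. Of 32817 promoter windows of the same length, 1.79% held TGACGTCA and 20.8% held a half-site on either strand, so a half-site alone is a common match. Counted by gene, a half-site was found in 23.0% of all genes with a window, in 36.1% of those in the table and in 41.6% of those higher in EE, and the full element in 2.03%, 3.2% and 4.86%. The AP-1 motif TGANTCA, which is the same on both strands and overlaps none of these, was in 7.81% of the windows and had 1 match here, 152 bases before the transcript start in the Bdnf window chr2:109676782-109677081. By gene, AP-1 was in 8.98% of all genes with a window, in 5.25% of those in the table and in 7.03% of those higher in EE. The shares by gene rest on 26994 genes with a window, 438 in the table and 185 higher in EE. These groups were not matched for expression or GC content, and the differences between the shares were not tested. A match of letters describes the window and was not tested for binding.

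Nptx2, Ptgs2 and Bdnf rose in EE, by 32.7%, 27.4% and 19.0%. Scg2, the most abundant of the 4, was 12.5% higher in the mean but did not pass the threshold, an unadjusted edgeR p of 0.01. Scg2 did pass in 4 of 14 other settings of scaling and test, TMM factors among them. With the GC correction described below, Ptgs2 (log2 fold change 0.092 in place of 0.35) and Bdnf (0.10 in place of 0.25) no longer passed, and Bdnf did not pass with the table sum as library size either (0.19). The 3 genes that rose had no overlap between the groups, and Scg2 had an overlap. Over the table, 19.2% of the 584 genes were higher in EE under the same p, and 37.2% had every EE library above every SH library. The first share depended on the scaling, with 39.2% for TMM factors and 4.28% for the table sum as library size. Since the groups are bulk tissue, fewer cells of a type and less RNA per cell cannot be told apart in any of these levels.

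**Figure D1:**
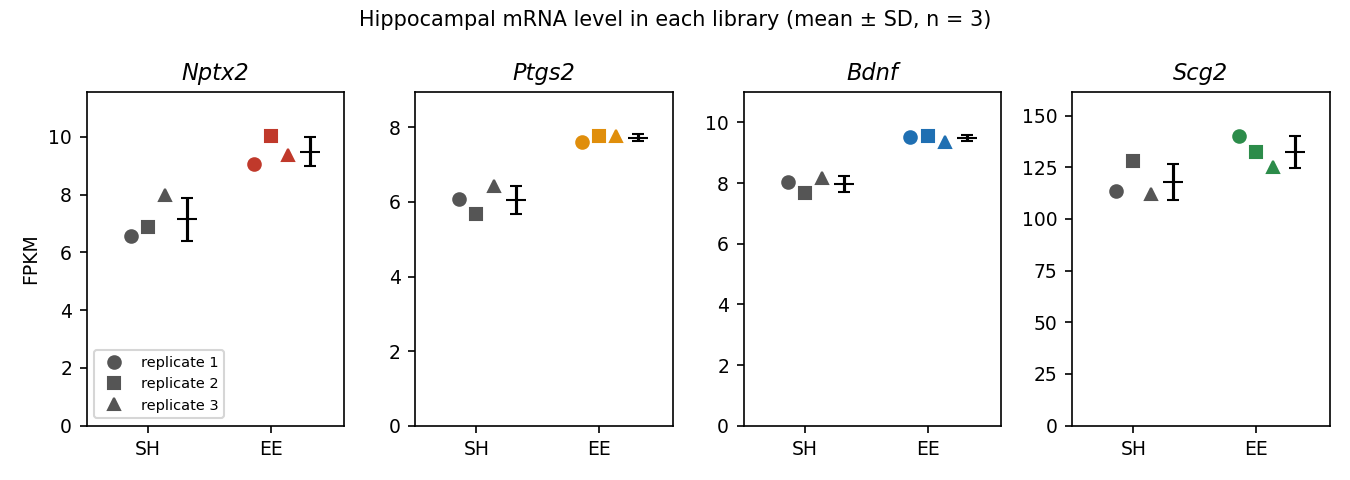
FPKM of Nptx2, Ptgs2, Bdnf and Scg2 in each of the 3 SH and 3 EE libraries (vertical axes start at 0 and differ between genes); symbols stand for replicates and black bars for mean ± SD. For Nptx2, Ptgs2 and Bdnf all EE points lie above all SH points, whereas the EE replicate 3 of Scg2 (124.9) lies below SH replicate 2 (127.9).

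The ligand Bdnf lies at chr2:109674700-109727043 on the plus strand and has 12 RefSeq transcripts, with 6714 exon bases in 9 blocks. Its level was 8.03, 7.68 and 8.18 FPKM in SH replicates 1, 2 and 3, and 9.51, 9.57 and 9.36 FPKM in EE replicates 1, 2 and 3. The 3 EE libraries lay closely together and above the highest SH library, SH replicate 3, by 1.18 FPKM. The mean was 7.96 ± 0.255 in SH and 9.48 ± 0.106 in EE (SD, n = 3 libraries each), with a coefficient of variation of 3.21% and 1.11%. These spreads are of the order of the counting error, which was between 1.72% and 2.41% at counts from 1724 to 3391. The log2 fold change was 0.25 ± 0.05 (SE). The 95% confidence interval of the rise was 9.99% to 28.8% (edgeR quasi-likelihood test, Benjamini-Hochberg adjusted p = 0.0144 over the 584 genes). Because all 584 genes had been selected in these libraries, this interval and adjusted p are no independent evidence of a change. The same holds for the other members. In GENCODE vM21 the antisense gene Gm45346 shares 14.4% of the Bdnf exon bases. As the use of strand in counting is not given in the sources used here, reads of both genes cannot be told apart in that stretch. The counts sum the transcripts of all Bdnf promoters, so none of them has a value of its own.

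The synaptic pentraxin Nptx2 lies at chr5:144545887-144557478 on the plus strand, with 2551 exon bases in 5 blocks. It was at 6.56, 6.87 and 8.0 FPKM in SH replicates 1, 2 and 3, and at 9.06, 10.05 and 9.37 FPKM in EE replicates 1, 2 and 3. SH replicate 3 stood above the other SH libraries, and the lowest EE library was still 1.06 FPKM above it. Relative to its mean, Nptx2 had the widest spread of the 4 genes in SH, with a mean of 7.14 ± 0.759 FPKM against 9.50 ± 0.505 FPKM in EE (SD, n = 3 each). It also had the lowest counts, from 535 to 1290, and its counting error of 2.78% to 4.32% was smaller than the coefficient of variation of 10.6% in SH and 5.32% in EE. The log2 fold change of 0.41 ± 0.09 (SE) was the highest of the 4, and the 95% confidence interval of the rise ran from 16.1% to 51.8% (edgeR quasi-likelihood test, Benjamini-Hochberg adjusted p = 0.0144).

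The enzyme gene Ptgs2 lies at chr1:150100031-150108234 on the plus strand, with 4460 exon bases in 10 blocks. SH replicates 1, 2 and 3 had 6.07, 5.68 and 6.42 FPKM, and EE replicates 1, 2 and 3 had 7.61, 7.78 and 7.76 FPKM. All EE libraries were at least 1.19 FPKM above the highest SH library, and they differed less among themselves than the SH libraries did. The mean went from 6.06 ± 0.373 FPKM in SH to 7.72 ± 0.0933 FPKM in EE (SD, n = 3 each). The coefficient of variation of 1.21% in EE was below the counting error, whose lowest value was 2.31%. Ptgs2 ranked first of the 4 genes by p-value, with a log2 fold change of 0.35 ± 0.07 (SE) and a 95% confidence interval of the rise from 15.1% to 41.1% (edgeR quasi-likelihood test, Benjamini-Hochberg adjusted p = 0.0144).

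The granin Scg2 lies at chr1:79434366-79440026 on the minus strand. RefSeq gives 2724 exon bases in 2 blocks, and the FPKM values rest on a length of 2485 bases. Scg2 had 113.5, 127.9 and 111.9 FPKM in SH replicates 1, 2 and 3, and 140.3, 132.3 and 124.9 FPKM in EE replicates 1, 2 and 3. SH replicate 2 was above EE replicate 3, so that the lowest EE value minus the highest SH value was -2.99 FPKM. The other SH libraries were below all EE libraries. The mean was 117.8 ± 8.82 FPKM in SH and 132.5 ± 7.70 FPKM in EE (SD, n = 3 each). With 9019 to 16748 counts a library, the counting error was at most 1.05%, far below the coefficients of variation of 7.49% in SH and 5.81% in EE. The log2 fold change was 0.17 ± 0.07 (SE), with a 95% confidence interval of 1.57% to 24.6% (edgeR quasi-likelihood test, Benjamini-Hochberg adjusted p = 0.029). Over the other settings it ranged from 0.02, with the GC correction described below, to 0.28, and Scg2 passed in 4 of 14. Without SH replicate 2 the log2 fold change of Scg2 was 0.23 and passed the threshold (edgeR, Benjamini-Hochberg adjusted p = 0.0311), and without EE replicate 1 it was 0.13 and did not (edgeR, adjusted p = 0.122).

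The most abundant of the 4 genes had the smallest relative change. Per length, Scg2 was 14.3 times as abundant as Bdnf, and Bdnf, Nptx2 and Ptgs2 lay within a narrow range of FPKM. Their means over the 6 libraries placed Scg2 at rank 18, Bdnf at 151, Nptx2 at 155 and Ptgs2 at 168 among the 246 genes with a higher mean in EE. By log2 fold change the same genes held ranks 178, 92, 40 and 50. Among those 246 genes the Spearman correlation of FPKM with log2 fold change was -0.55, given as a description, because a table selected by p-value holds lowly expressed genes only where their change is large.

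Read against genes of similar abundance, the 4 members split. Bdnf, Nptx2 and Ptgs2 fell in the same abundance class when the higher genes were cut into 4 classes of FPKM (4.83 to 12.3 FPKM), which had a median log2 fold change of 0.21 and a range from 0.13 to 0.45. All 3 were above that median, and Nptx2 was near the upper end. Scg2 fell in the most abundant class, and its log2 fold change of 0.17 was the same as the median of 0.17 there. In absolute terms Scg2 came first. The mean FPKM of Scg2 was higher in EE by 14.7, that of Nptx2 by 2.35, that of Ptgs2 by 1.66 and that of Bdnf by 1.52. In reads scaled to library depth (RPM), the mean of Scg2 was higher by 36.6, against 10.2 for Bdnf, 7.41 for Ptgs2 and 6.00 for Nptx2.

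**Figure D2:**
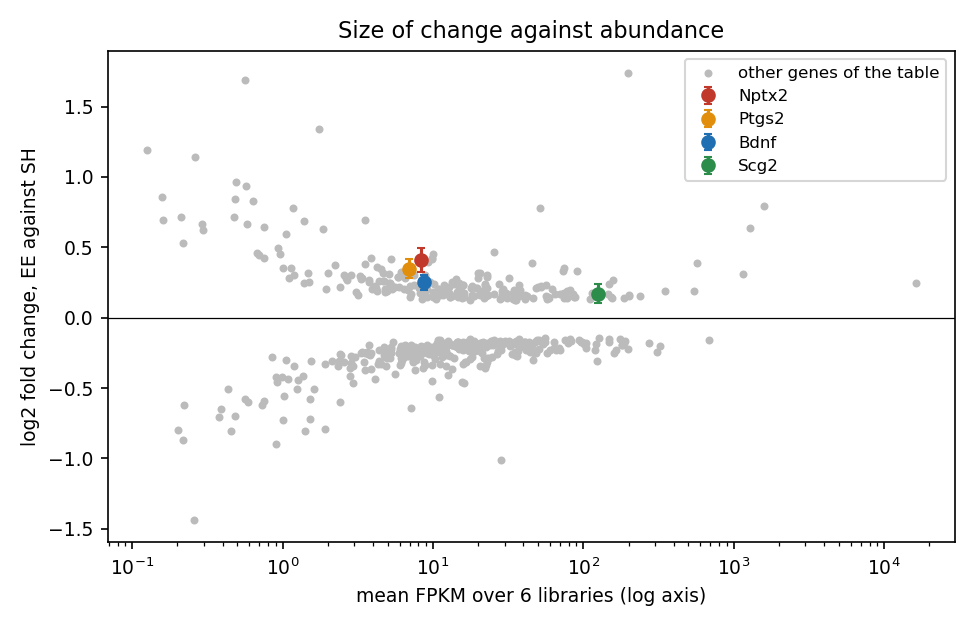
Log2 fold change, EE over SH, on the vertical axis against mean FPKM over the 6 libraries (horizontal, log axis) for the 584 genes; coloured points are the 4 members with SE bars, grey points the other genes. Nptx2 and Ptgs2 sit above most higher genes of similar FPKM, and Scg2 sits among highly expressed genes with a log2 fold change of 0.17.

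The 4 genes did not all vary together within the groups, and in SH replicates 2 and 3 Scg2 deviated in the direction opposite to the other members. On the log2 scale, SH replicate 3 was above its group mean for Nptx2 by 0.17, for Ptgs2 by 0.09 and for Bdnf by 0.04, whereas for Scg2 it was at -0.07. SH replicate 2 was the lowest SH library for Ptgs2 (-0.09) and Bdnf (-0.05) and the highest for Scg2 (0.12). In EE, replicate 2 was highest for Nptx2 (0.08) and for Ptgs2 and Bdnf, which each deviated by 0.01, and replicate 1 was highest for Scg2 (0.08). For Bdnf and Ptgs2 the coefficient of variation in EE (1.11% and 1.21%) was below the lowest counting error (1.72% and 2.31%). The order of the EE libraries for Bdnf and Ptgs2 thus lay within counting error. So Bdnf and Ptgs2 had the same order of the SH libraries, and that of Scg2 was the reverse of it. With 3 libraries a group such orders are a description.

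**Figure D3:**
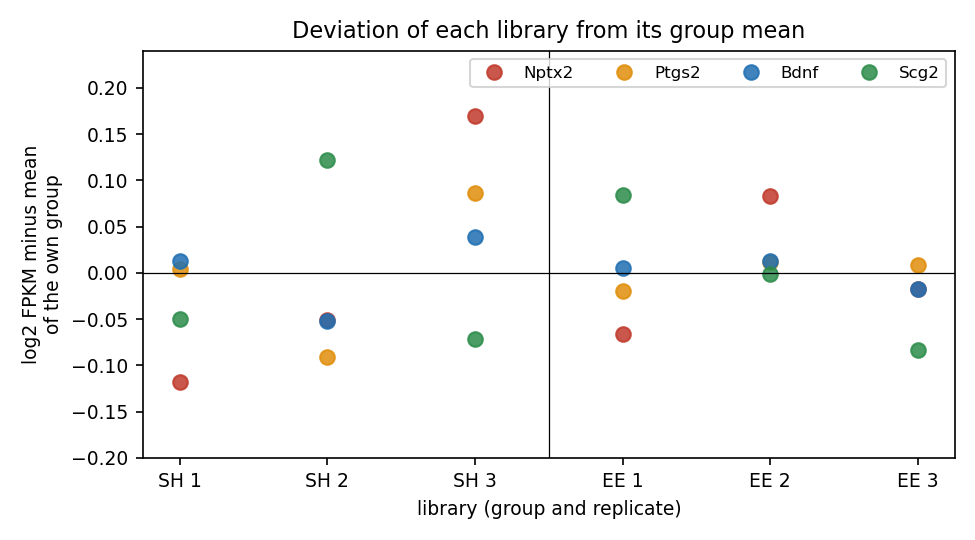
Deviation of each library from the mean of its own group in log2 FPKM (vertical) for the 6 libraries (horizontal) and the 4 genes (colours). In SH replicate 2 Scg2 lies above 0 while Nptx2, Ptgs2 and Bdnf lie below it, and in SH replicate 3 this is turned around; points of Bdnf and Nptx2 coincide in SH replicate 2 and EE replicate 3.

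Ratios within a library do not depend on a scaling that is the same for all genes. The log2 ratio of Bdnf to Ptgs2 was 0.40, 0.44 and 0.35 in the SH libraries and 0.32, 0.30 and 0.27 in the EE libraries. All EE values were below all SH values, with means of 0.40 ± 0.04 and 0.30 ± 0.03 (SD, n = 3 each). With the GC correction described below, the difference of EE minus SH was 0.0026 in place of -0.10. The other 5 ratios overlapped between the groups. Nptx2 to Scg2 had the largest difference of these, 0.24 higher in EE, followed by Ptgs2 to Scg2 (0.18), Bdnf to Scg2 (0.08) and Nptx2 to Ptgs2 (0.06), and Bdnf to Nptx2 was at -0.16. Leaving out 1 library moved Nptx2 to Scg2 between 0.16 and 0.36, Ptgs2 to Scg2 between 0.07 and 0.26, Nptx2 to Ptgs2 between 0.00 and 0.10 and Bdnf to Nptx2 between -0.23 and -0.10. Bdnf to Scg2 ran from -0.01 to 0.14, so its direction turned, and with the GC correction Ptgs2 to Scg2 was 0.07. The ratios with Nptx2 moved most with that correction. Nptx2 to Scg2 was then at 0.55, Nptx2 to Ptgs2 at 0.48 and Bdnf to Nptx2 at -0.48. None of the 6 differences passed a two-sided exact permutation test over the libraries, where p ran from 0.1, the smallest that 3 against 3 allows, to 0.6 and the lowest Benjamini-Hochberg adjusted p was 0.3.

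The genes most like each member over the 6 libraries were taken by Pearson's r of log2 FPKM. For Bdnf they were Mbnl2, an RNA-binding splicing factor (r = 0.995), Gm34466 (0.995) and Ptgs2 (0.991). For Ptgs2 they were Bdnf (0.991), Gm34466 (0.991) and Mbnl2 (0.983). Nptx2 was most like Arpc2, a subunit of the actin-nucleating Arp2/3 complex (r = 0.984), Cfap20 (0.980) and Mtdh (0.979). Scg2 was most like Lnpep, a membrane aminopeptidase (r = 0.973), Spats1 (0.965) and Dcun1d1 (0.921). An r of at least 0.9 was reached by 93 genes with Bdnf, 76 with Ptgs2, 62 with Nptx2 and 7 with Scg2. All genes of the table were selected for separating the same 6 libraries into SH and EE, so high values are common in it.

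Other activity-regulated effectors in the table pointed the same way as the 4 members. Of 31 further genes on that list, 6 were in the table, all with a higher mean in EE, and 4 of the 6 passed p of 0.01, where 19.2% of the 584 genes were higher at this p and 246 had a higher mean. With TMM factors 6 of the 6 passed (39.2% of the table), with the table sum as library size 2 (4.28% of the table) and with the GC correction described below 3 (6.78%). Without 1 library between 2 and 4 passed, where 8.90% to 16.8% of the table rose. The fewest passed without EE replicate 2, where 9.93% of the table rose. Dusp5 and Dusp6, phosphatases that switch off ERK signalling, rose by 0.43 and 0.32 on the log2 scale. Tiparp, a mono-ADP-ribosyltransferase, rose by 0.33 and Errfi1, an inhibitor of EGF receptor signalling, by 0.21. Dusp5 passed in every setting and without any 1 library, whereas Dusp6 did not pass without EE replicate 2, Errfi1 not without SH replicate 3, and Tiparp, whose groups overlapped, not without SH replicate 2 or 3 or EE replicate 1 or 2. Of the 14 other settings Tiparp passed in 8 and Errfi1 in 11, and with the GC correction Tiparp was at 0.073 and Errfi1 at 0.12. The kinase gene Sgk1 (0.29) and the neuropeptide gene Cort (0.39) did not pass, although of the 14 other settings Sgk1 passed in 7 and Cort in 11. Sgk1 also passed without SH replicate 2 or EE replicate 1 and was at 0.19 without SH replicate 3, and Cort passed without SH replicate 3. The median log2 fold change of the 6 genes was 0.32, against -0.18 over the whole table and 0.21 over its higher genes. Listed genes outside the table were not analysed here.

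The activity-regulated transcription factors, which act upstream of effectors or beside them, were mixed, and their count changed with 1 library left out and with the setting. Of 29 on the list, 10 were in the table, and 3 of them rose while 2 fell, where 19.2% of the 584 genes rose and 40.6% fell. With TMM factors 4 of the 10 rose and 0 fell, where 39.2% of the table rose and 9.08% fell, and with the GC correction described below 4 rose and 0 fell, where 6.78% of the table rose and 16.2% fell. With the replicate block 6 rose and 1 fell (13.4% and 23.3% of the table). With the size factors of DESeq2 5 rose and 0 fell (39.9% and 4.97%), and with the table sum as library size 2 rose and 2 fell (4.28% and 54.6%). Without SH replicate 1, 8 of the 10 rose and 2 fell, where 13.5% of the table rose and 27.9% fell, and without any other 1 library 2 or 3 rose. Egr4 rose by 0.36, Atf3 by 0.93 and Per2, a clock component, by 0.31 on the log2 scale. Over the other settings Egr4 ranged from 0.29 to 0.74, Atf3 from 0.33 to 1.05 and Per2 from 0.25 to 0.41. Per2 passed in every setting and without any 1 library, Atf3 did so in every setting that kept so low a gene, and Egr4 did not without SH replicate 3, EE replicate 1 or EE replicate 3, nor with the table sum as library size. The AP-1 subunit genes Jun and Jund fell by 0.18 and 0.22, although Jund turned to 0.033 with the GC correction described below. Neither passed without SH replicate 2 or 3 or EE replicate 1 or 2, Jun passed in 6 and Jund in 9 of the 14 other settings, and neither passed with TMM factors (edgeR, Benjamini-Hochberg adjusted p = 0.0485 and adjusted p = 0.0442). Egr1 (0.39), Egr2 (0.97), Nr4a1 (0.43), Nr4a3 (0.18) and Klf10 (0.28) had higher means in EE and did not pass. All 5 passed without SH replicate 1, where they were at 0.61, 1.58, 0.67, 0.25 and 0.38 (edgeR, Benjamini-Hochberg adjusted p from 0.000371 to 0.0188), and none of them did without any other 1 library. Without SH replicate 2, Klf10 was at 0.14. Of the other settings Egr1 passed in 4, Egr2 in 2, Nr4a1 in 5, Nr4a3 in 3 and Klf10 in 1. Atf3 and Egr2 were low genes, with means in SH of 0.390 and 0.335 FPKM.

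The partners of each member in its own pathway were mostly outside the table. None of 25 further neurotrophins, receptors and processing enzymes was in it, so Bdnf stood alone there. Of 24 pentraxins and proteins of the AMPA receptor synapse 3 were in it. Nptx1, the paralog with which neuronal pentraxin 2 forms complexes, fell from 112.7 ± 6.32 to 97.2 ± 4.25 FPKM (SD, n = 3 each) without overlap of the groups, opposite in sign to Nptx2. In the main fit its log2 fold change was -0.21 (edgeR, Benjamini-Hochberg adjusted p = 0.0161), and with TMM factors it was -0.14 and did not pass (edgeR, adjusted p = 0.0598). Nor did it without SH replicate 2 or 3 or EE replicate 1 or 2, and it passed in 7 of the 14 other settings. Lrrtm2, a postsynaptic adhesion protein, was at 0.15 and C1ql2, a secreted synaptic organizer of mossy fibres, at -0.29 on the log2 scale, and neither passed, while Lrrtm2 passed in 6 and C1ql2 in 2 of the 14 other settings. Over those settings C1ql2 ranged from -0.35 to -0.02. Without EE replicate 3 both passed, and without SH replicate 1 C1ql2 did. Lrrtm2 turned to -0.14 with the GC correction described below.

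Of 22 genes of prostaglandin synthesis and signalling, Mgll was in the table. It encodes monoacylglycerol lipase, which supplies arachidonic acid in the brain, and it fell by 0.17 on the log2 scale (edgeR, Benjamini-Hochberg adjusted p = 0.0147), although it did not pass with TMM factors (edgeR, adjusted p = 0.052) or without SH replicate 1 or EE replicate 1. Mgll passed in 8 of the 14 other settings and was at -0.09 with the GC correction. Of 29 further granins and dense core vesicle genes, Pcsk1n, an inhibitor of a prohormone convertase, was at -0.22 and Cort at 0.39, and neither passed here, while Pcsk1n passed in 5 and Cort in 11 of the 14 other settings and Pcsk1n also without SH replicate 1. Over those settings Pcsk1n ranged from -0.28 to -0.08 and Cort from 0.33 to 0.56.

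Cell type markers of the table gave a limited view of composition. The neuronal gene Neurod6, 1 of 12 listed neuron markers, was between 132.1 and 142.8 FPKM in SH and between 151.2 and 158.3 FPKM in EE, and its log2 fold change turned to -0.051 with the GC correction described below. Of 10 astrocyte markers Aldh1l1 and Gja1 were present, with a sum of 101.4 to 104.0 FPKM in SH and 91.2 to 92.4 FPKM in EE. Over the table, 314 of the 584 genes had every EE library below every SH library. Both genes passed p of 0.01, but neither did with TMM factors. Each passed in 8 of the 14 other settings and in 2 of the 6 fits without 1 library. Over the other settings Aldh1l1 ranged from -0.27 to -0.10 and Gja1 from -0.31 to -0.04 on the log2 scale. The microglial P2ry12 (1 of 10) went from 18.6 to 21.7 FPKM in SH to 23.5 to 24.8 FPKM in EE, and with the GC correction its log2 fold change turned to -0.031. The sum of Cldn5, Cd34 and Ptprb (3 of 12 endothelial and vessel markers) was 17.2 to 19.9 FPKM in SH and 14.5 to 16.1 FPKM in EE. These 3 did not move as one, since every EE library was lower for Cldn5, the groups overlapped for Cd34, and every EE library was higher for Ptprb (0.845 to 1.09 FPKM in SH and 1.19 to 1.22 FPKM in EE). Hba-a1, 1 of 5 blood markers, overlapped between the groups, with 57.6 to 78.1 FPKM in SH and 75.4 to 95.1 FPKM in EE. The defining markers of oligodendrocytes (10 listed) and choroid plexus (7 listed) were not among the 584 genes. These sums rest on selected genes, and the part of cell composition in the levels of the 4 members was not tested.

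The exon GC content of a gene moved with its direction. The median GC content was 43.9% in the higher genes and 56.8% in the lower genes. Ptgs2 (40.0%), Bdnf (44.5%) and Scg2 (45.0%) had the GC content of the higher genes, and of the other genes within 2 percentage points of them 70 of 73, 68 of 78 and 62 of 72 were higher in EE. Nptx2, at 58.3%, lay among genes that were mostly lower. Of 121 genes within 2 points of it 7 were higher, and 5 had a larger log2 fold change than Nptx2. When the slope of log2 FPKM on GC content was removed from each library, the log2 fold change of Nptx2 was 0.57 (edgeR, Benjamini-Hochberg adjusted p = 0.0067) and passed. Bdnf was at 0.10 (adjusted p = 0.139 by edgeR), Ptgs2 at 0.09 (adjusted p = 0.268 by edgeR) and Scg2 at 0.02 (adjusted p = 0.805 by edgeR), and none of these passed. This slope was fitted over genes chosen for a difference between the groups, and what part of it belongs to that difference was not tested.

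**Figure D4:**
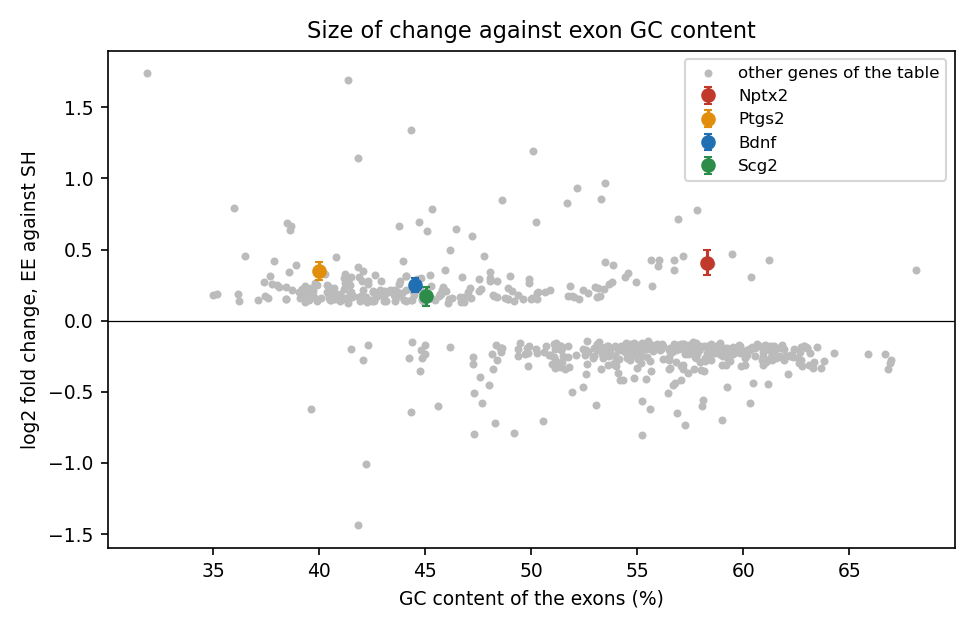
Log2 fold change, EE over SH, on the vertical axis against exon GC content in percent (horizontal) for the 575 genes of the table with a GC value; coloured points are the 4 members with SE bars. Ptgs2, Bdnf and Scg2 lie where most genes were higher in EE, and Nptx2, at 58.3% GC, lies above a field of genes that were mostly lower.

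Across all settings tried, each member kept a log2 fold change above 0. Nptx2 passed p of 0.01 in all 14 other settings and without any 1 library. Ptgs2 and Bdnf passed without any 1 library and in 12 and 11 of the 14 settings, and Scg2 passed in 4 of the 14. All these fits use the libraries in which the genes were selected, so a kept direction or call is not an independent check.

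**Figure D5:**
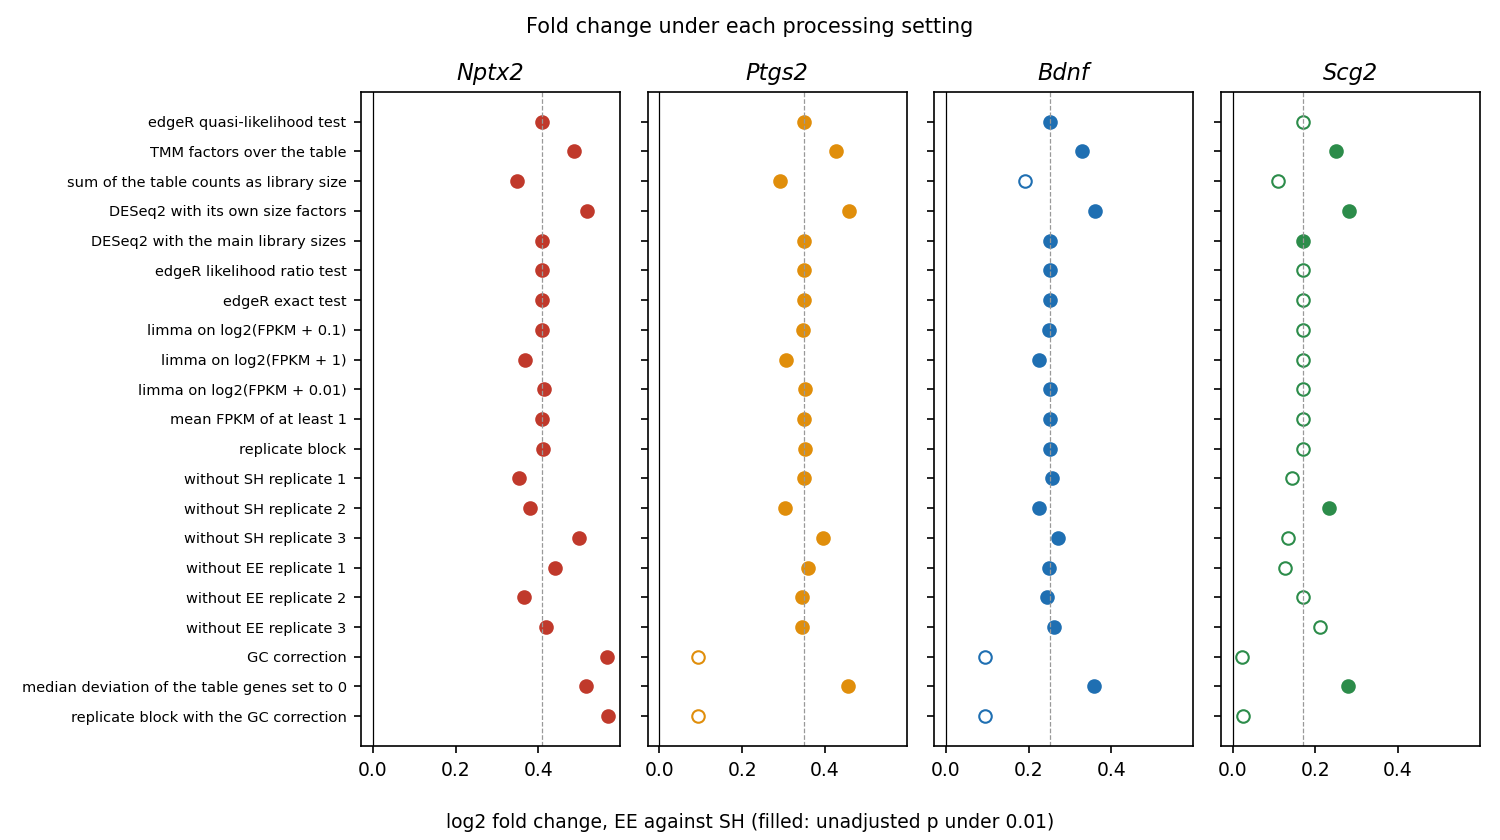
Log2 fold change, EE over SH, on the horizontal axis for the 4 members under the main edgeR test (top line, dashed) and each other setting (lines); filled points had an unadjusted p under 0.01. All points lie above 0, and the points of Ptgs2, Bdnf and Scg2 are lowest with the GC correction, where Nptx2 is highest.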

How the data were processed

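Hippocampal RNA-seq libraries of 3 SH and 3 EE samples were used, grouped by the sample labels. Reads had been mapped by the authors with Hisat2 (mm10), gene counts came from FeatureCounts 1.5.0-p3, and the deposited table gives these raw counts per library. FPKM values, deposited beside the counts, were derived by the authors from gene length and mapped reads. Further deposited columns, a p-value and a log2 fold change from the authors' own edgeR comparison, were not used. Normalization and strand use are not given in the sources used here.

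Library totals were computed from count, FPKM and RefSeq exon lengths (GRCm38.p6), where 205 genes gave the same total within 0.001%. RefSeq matched 563 genes by symbol and 14 by an older symbol. Counts were tested with edgeR 4.0.16 (quasi-likelihood, R 4.3.3) on these totals, without a low-count filter. The threshold was an unadjusted p of 0.01, following the p-value in the methods of the study. The absolute fold change of 1 that the methods also name was not applied. Standard errors were derived from the log2 fold change and the F statistic, and Benjamini-Hochberg adjustment ran over all 584 genes. This adjustment cannot control the share of false calls here, because the genes were already selected in the same libraries. The labels do not say that replicate numbers pair animals. The correlations of same-numbered deviations were 0.15, -0.04 and -0.10, which cannot exclude a pairing, since the genes were selected for a group difference. No libraries of a group were duplicates (chi-square per degree of freedom of at least 22.4).

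The members and gene lists were chosen with earlier results of these data known. Named genes are the 4 members, the 3 genes with the highest r to each, and listed genes present in the table. Alternatives were TMM factors, the table sum as library size, DESeq2 1.42.0, the likelihood ratio and exact tests, limma 3.58.1 on log2 of FPKM plus 0.1, 1 or 0.01, a mean FPKM of at least 1, the replicate block and each library left out. The GC correction and the scaling to the median gene of the table were added after the data were seen.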

Additional observations from a re-analysis of the deposited data

How the results depend on the processing

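Values are log2 fold changes unless named otherwise. Directions of the 4 members held in every setting, but calls at an unadjusted p of 0.01 depended on the scaling, the GC correction and the tool. Adjusted p-values of members that lost the call were 0.0171 to 0.274 (edgeR, Benjamini-Hochberg), and those of Scg2 where it gained it 0.000517 to 0.0311 (edgeR or DESeq2). Bdnf did not pass with the table sum as library size (0.19), with the GC correction (0.10) or with the replicate block and the GC correction (0.10), and Ptgs2 did not with the GC correction (0.092) or with block and GC (0.093). Scg2 passed with TMM factors (0.25), DESeq2 with its own size factors (0.28) or the main totals (0.17) and the median gene set to 0 (0.28). The log2 fold changes with 1 library left out were 0.23 to 0.27 for Bdnf, 0.35 to 0.50 for Nptx2, 0.30 to 0.40 for Ptgs2 and 0.13 to 0.23 for Scg2. The replicate block alone changed no call of a member (Scg2 0.17), and of the 10 transcription factors 6 rose and 1 fell with it, where 13.4% of the table rose and 23.3% fell. Of the 4 members 3 passed, 1 with the GC correction and 1 with block and GC, and 3 to 4 without 1 library.

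Of the 584 genes 349 passed (112 higher, 237 lower), 214 with the replicate block, 132 with the GC correction, 114 with both, 31 at p of 0.001 and 583 at an adjusted p of 0.05 (edgeR, Benjamini-Hochberg), and 135 to 324 without 1 library, the lowest being 135 without EE replicate 2, 140 without EE replicate 1 and 165 without SH replicate 2. The split of higher and lower calls was 229 and 53 with TMM factors, 25 and 319 with the table sum, 233 and 29 with the size factors of DESeq2 and 228 and 25 with the median gene set to 0. The last 2 scalings moved the median log2 fold change up by 0.11. The GC correction and the block with it turned Jund to 0.033 and 0.033, Lrrtm2 to -0.14 and -0.14, Neurod6 to -0.051 and -0.050 and P2ry12 to -0.031 and -0.030. The cause of these shifts was not tested. Log2 ratios between members (EE minus SH) moved by less than the spread of replicates with a pseudocount, although without 1 library Bdnf to Scg2 ranged from -0.01 to 0.14. The GC correction turned Bdnf to Ptgs2 to 0.0026 and moved Bdnf to Nptx2 to -0.48, Nptx2 to Ptgs2 to 0.48, Nptx2 to Scg2 to 0.55 and Ptgs2 to Scg2 to 0.07.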
